A study of Bos taurus with 15 samples.

Results

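The genes of the insulin-like growth factor (IGF) system that were followed here are the ligands IGF1 and IGF2, the receptor IGF1R and the binding proteins IGFBP2, IGFBP3, IGFBP4, IGFBP5, IGFBP6 and IGFBP7. They were taken by gene name from the expression table, where each of the 9 names stands on 1 of the 38001 gene rows, and all 9 had enough counts to be tested. The genes were chosen by name, as a list drawn up with earlier results of these data known, among them levels in molded and no-mold tissue. The contrast of molded and no-mold tissue is therefore described for them and not tested. The p-values of the other comparisons do not account for that choice.

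IGF1 and IGF2 are secreted peptides that bind the receptor tyrosine kinase IGF1R, which signals through insulin receptor substrates to the PI3K, AKT and mTORC1 pathway and supports growth, survival and matrix synthesis in cartilage and meniscus. Most IGF in tissue is held by binding proteins, which limit access to the receptor, can deliver the ligand to the matrix, and are cut by dedicated proteases. IGFBP7 binds IGFs only weakly and is often counted as a related protein.

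RNA was measured by 3'-tagged, poly-A-selected sequencing in bovine meniscal fibrochondrocytes, cells that lay down the matrix of the knee's cartilage pad, in tissue engineered in collagen and collected at day 28. Molded tissue was made with post anchors (anchored) or without them (unanchored) and was cut into a post and a middle region, and cells in collagen without any mold formed the last group. The groups were anchored post, anchored middle, unanchored post, unanchored middle and no mold, with 3 libraries each and 15 in all. All groups shared the same medium, first a growth medium with 10% serum for 3 days and then 25 days of chondrogenic medium with ascorbic acid (50 µg/ml), dexamethasone, TGF-β3 (10 ng/ml) and the supplement ITS-X, which supplies insulin. The labels do not say whether replicates were separate tissues or animals, so p-values reflect only how much these libraries vary, and that variation may be technical. The regions come from cut tissue, and the pieces of 1 tissue may be present in both regions.

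Totals ran from 2060781 to 7415701 counts per library. The fibrochondrocyte label was checked against 14 markers of fibroblasts and meniscal cells, all of which were tested, with COL1A1 at a mean of 11021 CPM (counts scaled to a common library total) and LUM at 7991 CPM. The cartilage genes among them were lower, with COL2A1, PRG4, SOX9 and ACAN at 209, 212, 148 and 144 CPM. Of the markers of other cells, 0 of 8 endothelial, 1 of 8 leukocyte, 1 of 7 skeletal muscle, 1 of 5 Schwann, 5 of 6 mural and 3 of 6 adipocyte genes had enough counts to be tested, as did 9 of 15 liver genes. The highest of these lists were S100B (Schwann) at 390 CPM, FABP4 (adipocyte) at 356 CPM, CSPG4 (mural) at 80.1 CPM and AFP (liver) at 59.5 CPM. Levels below are CPM after TMM scaling, and a fold change is a log2 value with its standard error (SE) from 1 model over the 15 libraries. Genes are compared with themselves across groups and not with each other. In bulk RNA, fewer cells that express a gene and less of its RNA per cell cannot be told apart.

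**Figure D1:**
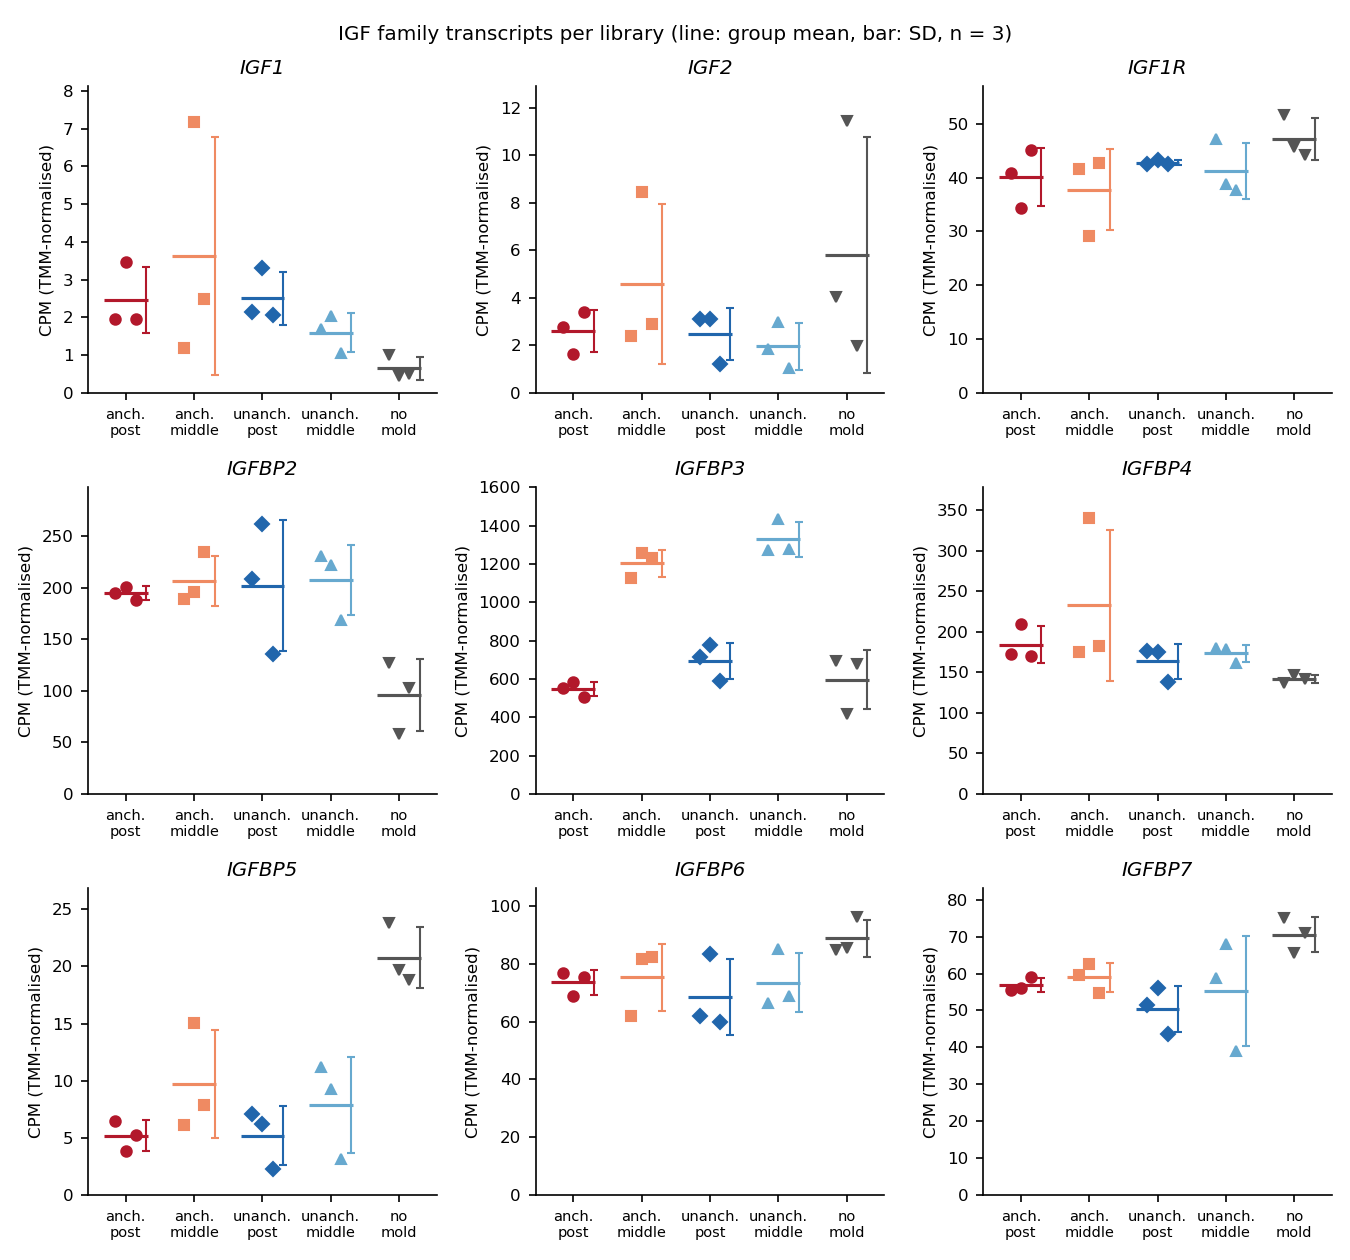
TMM-scaled CPM of each of the 9 genes (vertical axes from 0, 1 panel per gene) by group, with 1 point per library, a line at the mean and an error bar of 1 SD (n = 3). IGFBP3 in the post libraries, 507 to 778 CPM, lies below all middle libraries, 1125 to 1432 CPM.

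IGFBP3, the most abundant IGF carrier in blood and a protein that also acts on cells directly, was the member that differed between regions. It was lower in the post region than in the middle region, in anchored and in unanchored tissue alike. Its row is ENSBTAG00000003994. In anchored tissue, IGFBP3 had 553, 583 and 507 CPM in the post libraries, against 1125, 1255 and 1231 CPM in the middle libraries. The groups did not overlap, and every middle library stood far above every post library. The post mean was 547.7 ± 38.6 CPM and the middle mean 1204 ± 69.7 CPM (SD, n = 3 each). In unanchored tissue, IGFBP3 had 714, 778 and 592 CPM in the post libraries, against 1275, 1432 and 1278 CPM in the middle libraries. These groups did not overlap either, with means of 694.8 ± 94.9 CPM in the post and 1328 ± 90.0 CPM in the middle region (SD, n = 3 each).

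IGFBP3 fell by 1.14 on the log2 scale in the anchored post region (SE 0.143, 95% interval -1.43 to -0.84, adjusted p = 0.000341, edgeR quasi-likelihood test with Benjamini-Hochberg adjustment). In the unanchored post region it fell by 0.94 (SE 0.142, 95% interval -1.23 to -0.64, adjusted p = 0.00348). Over both mold types it fell by 1.04 (SE 0.101, 95% interval -1.24 to -0.83, adjusted p = 2.87e-06), and its 6 post libraries all lay below its 6 middle libraries. By p-value it ranked 1 of 11834 genes in anchored tissue, 3 in unanchored tissue and 1 over both. As background, 227 genes (1.92% of those tested) were called in anchored tissue, 0.254% as higher and 1.66% as lower in the post region. In unanchored tissue 53 genes (0.448%) were called, 0.0676% as higher and 0.38% as lower. Over both mold types 1007 genes (8.51%) were called, 3.32% as higher and 5.19% as lower. The share of genes with libraries of the sides apart was 17.6%, 21% and 4.17% in the same order. Leaving out any 1 library kept the IGFBP3 call. The largest adjusted p for unanchored tissue was then 0.0493, without unanchored middle library 2. The number of genes called moved more. In anchored tissue it was 121, 62 and 96 without anchored post 1, anchored post 3 and anchored middle 3. In unanchored tissue it was 16, 25 and 7 without unanchored post 1, 2 and 3, 14, 3 and 129 without unanchored middle 1, 2 and 3, 85 without anchored post 2 and 159 without anchored middle 2. Over both mold types it was 602, 648, 465 and 634 without unanchored post 3, unanchored middle 1, unanchored middle 2 and anchored middle 3.

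Marker sums and the mitochondrial share were set beside IGFBP3. The summed level of the 14 fibrochondrocyte and fibroblast markers was 33911 to 40790 CPM in the anchored post and 46541 to 49809 CPM in the anchored middle libraries, without overlap. It was 32716 to 38992 CPM in the unanchored post and 37499 to 50946 CPM in the unanchored middle libraries. Of these 14 genes, 4 were called lower in the post region in anchored tissue, 1 in unanchored tissue and 8 over both mold types. Of all genes, 1.66%, 0.38% and 5.19% were called lower in the same order. Over both mold types 1 of the 14 was called higher, and their median log2 fold change was -0.43. The summed level of 15 liver markers, a set that includes AFP, was 121 to 177 CPM in the anchored post and 97.1 to 217 CPM in the anchored middle libraries, so the anchored groups overlapped. It was 123 to 181 CPM in the unanchored post and 87.3 to 123 CPM in the unanchored middle libraries, higher in the post region by a narrow margin. Of the 9 liver genes tested, 1 was called lower and 0 higher in the post region, in anchored tissue, unanchored tissue and over both. The median log2 fold change of the 9 over both mold types was 0.42. Adipocyte markers summed to 312 to 528 CPM in the anchored post and 405 to 617 CPM in the anchored middle libraries, and to 355 to 402 CPM in the unanchored post and 385 to 472 CPM in the unanchored middle libraries. Of the 3 adipocyte genes tested, 1 was called lower in the post region in anchored tissue and over both mold types. Mitochondrially encoded genes held 1.62% to 1.84% of counts in the anchored post and 1.77% to 2.36% in the anchored middle libraries. Their share was 1.52% to 1.97% in the unanchored post and 2.06% to 2.35% in the unanchored middle libraries, without overlap. The part of these measurements in the IGFBP3 difference was not tested. Of the IGFBP3 counts, 28.0% sat in library values that were not whole numbers, as when a read fits several genes. That share takes the whole value of each such library, such as the 9078.5 counts of unanchored middle library 2. It is therefore not the share of reads that fit several genes, which was not counted. The same holds for the shares in non-whole values given for other genes below.

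**Figure D2:**
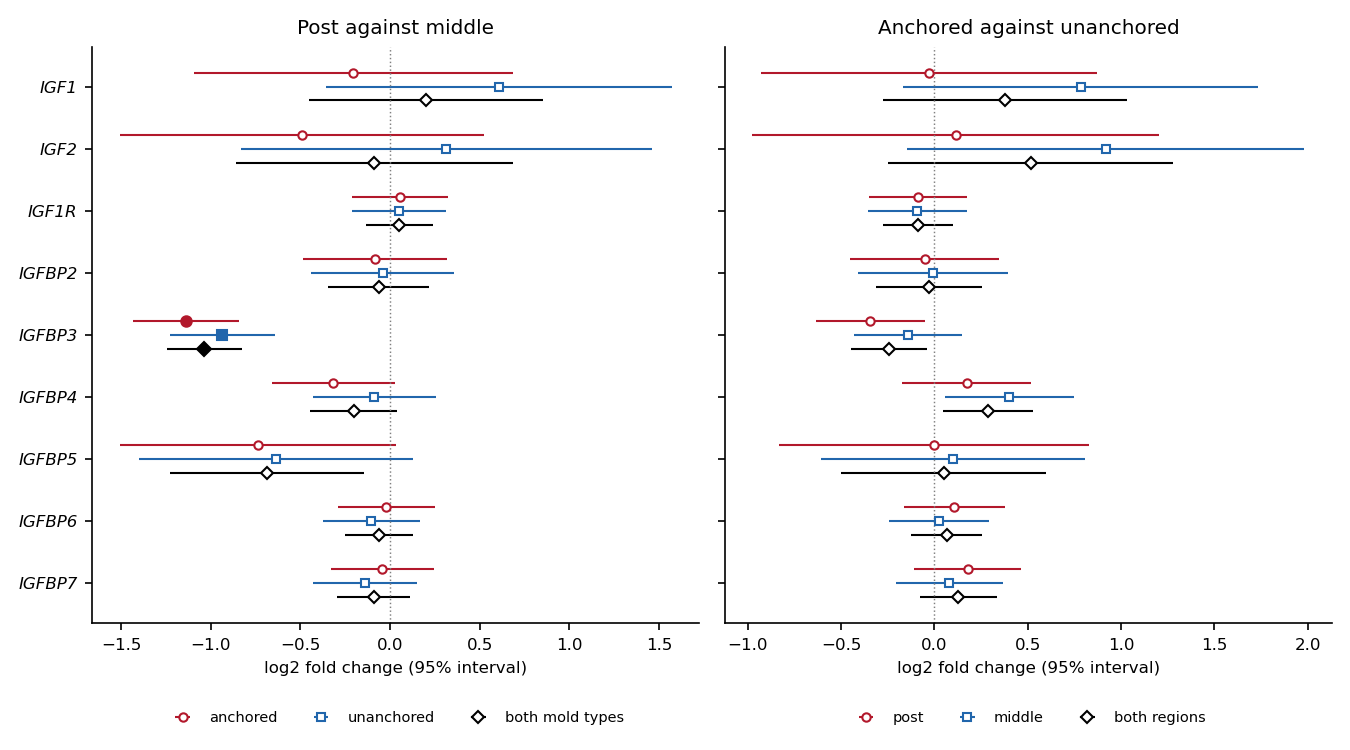
Log2 fold change of each member with its 95% interval in the comparisons of regions and of anchoring, with filled markers where the adjusted p is below the 0.05 threshold. IGFBP3 is the member called between regions, in each of the 3 comparisons, and no member is called for anchoring.

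The remaining 8 members showed smaller differences between regions, and 0 of them passed the threshold in any of the 3 region comparisons. At an unadjusted p under 0.05, IGFBP5 alone of these 8 was counted, in the comparison over both mold types, where 23.4% of all genes were. DESeq2 called 1 of the 9 members in each region comparison, IGFBP3. Without IGFBP3, the log2 fold changes over both mold types ran from -0.69 for IGFBP5 to 0.20 for IGF1, with adjusted p from 0.106 to 0.919. The median over the 9 members was -0.09, against -0.01 over all genes tested.

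Of the ligands, IGF1, the growth hormone-dependent growth factor, had very few reads in this tissue (ENSBTAG00000011082). It had 1.97, 3.47 and 1.96 CPM in the anchored post libraries, against 1.20, 7.18 and 2.48 CPM in the anchored middle libraries. In unanchored tissue it had 2.13, 3.32 and 2.08 CPM in the post libraries, against 1.70, 2.05 and 1.05 CPM in the middle libraries. The anchored groups overlapped, with anchored middle library 2 the highest of the 12 molded libraries. The unanchored post libraries all lay above the unanchored middle libraries, by a narrow margin, and the difference of 0.61 (SE 0.467) did not pass the threshold (adjusted p = 0.593). The 95% interval of that difference was -0.36 to 1.57.

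IGF2, the fetal growth factor of the family, was also low, with 9.31% of its counts in non-whole values (ENSBTAG00000013066). It had 2.76, 1.64 and 3.40 CPM in the anchored post libraries, against 2.40, 8.44 and 2.92 CPM in the anchored middle libraries. In unanchored tissue it had 3.12, 3.12 and 1.21 CPM in the post libraries, against 1.84, 3.00 and 1.05 CPM in the middle libraries. All of these groups overlapped, and the log2 fold change over both mold types was -0.09 (95% interval -0.86 to 0.68).

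IGF1R, the signaling receptor, had group means of 37.7 to 42.8 CPM in molded tissue (ENSBTAG00000021527). It had 40.8, 34.3 and 45.2 CPM in the anchored post libraries, against 41.5, 29.1 and 42.6 CPM in the anchored middle libraries. In unanchored tissue it had 42.5, 43.3 and 42.5 CPM in the post libraries, against 47.2, 38.8 and 37.7 CPM in the middle libraries. The groups overlapped, and the difference over both mold types, 0.05, had a 95% interval of -0.14 to 0.24.

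Among the other binding proteins, IGFBP5, which binds matrix as well as IGF, had lower means in the post region but did not pass the threshold (ENSBTAG00000059978). It had 6.51, 3.84 and 5.24 CPM in the anchored post libraries, against 6.14, 15.1 and 7.88 CPM in the anchored middle libraries. In unanchored tissue it had 7.06, 6.24 and 2.25 CPM in the post libraries, against 11.2, 9.31 and 3.14 CPM in the middle libraries. The ranges overlapped in both mold types. Over both, the log2 fold change was -0.69 (SE 0.262, 95% interval -1.23 to -0.14), with an unadjusted p of 0.0152 and an adjusted p of 0.106 in the edgeR fit. Without unanchored middle library 3 it was -0.86 with an adjusted p of 0.0163, which is past the threshold, and without unanchored post library 3 it was -0.50.

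IGFBP4, an inhibitory carrier that is cut by the protease PAPPA, had 173, 210 and 170 CPM in the anchored post libraries, against 175, 340 and 183 CPM in the anchored middle libraries. In unanchored tissue it had 177, 175 and 138 CPM in the post libraries, against 180, 179 and 161 CPM in the middle libraries. Anchored middle library 2 was the highest and unanchored post library 3 the lowest of these values. IGFBP2, a carrier with a preference for IGF2 and an integrin-binding motif, had 195, 201 and 188 CPM in the anchored post libraries, against 189, 195 and 234 CPM in the anchored middle libraries. In unanchored tissue IGFBP2 had 209, 262 and 136 CPM in the post libraries, against 231, 222.5 and 169 CPM in the middle libraries. The ranges of both genes overlapped in part in each mold type, with log2 fold changes over both mold types of -0.20 for IGFBP4 (95% interval -0.44 to 0.04) and -0.06 for IGFBP2 (95% interval -0.35 to 0.22).

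IGFBP6, which prefers IGF2 over IGF1, averaged 73.5 ± 4.27 CPM in the anchored post and 75.3 ± 11.7 CPM in the anchored middle region (SD, n = 3 each). Its unanchored means were 68.5 ± 13.1 CPM in the post and 73.4 ± 10.1 CPM in the middle region. IGFBP7, the weak IGF binder, averaged 56.8 ± 1.93 CPM in the anchored post and 58.9 ± 3.92 CPM in the anchored middle region. In unanchored tissue IGFBP7 averaged 50.4 ± 6.28 CPM in the post and 55.2 ± 14.9 CPM in the middle region. The libraries of both genes overlapped between regions, and the 95% intervals over both mold types were -0.25 to 0.13 for IGFBP6 and -0.29 to 0.11 for IGFBP7.

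Anchoring moved 0 of the 9 members past the threshold in the middle region, in the post region or over both, and the interaction of anchoring and region also gave 0. Background was 0% of genes in each of these 4 comparisons by the edgeR quasi-likelihood test, and DESeq2 also called 0. At an unadjusted p under 0.05 there were 366, 454, 648 and 223 genes in the middle region, the post region, both regions and the interaction. These were 3.09%, 3.84%, 5.48% and 1.88% of the genes tested. Among the members, 1, 1, 2 and 0 were counted in the same order. The member was IGFBP4 in the middle region (log2 fold change 0.40, unadjusted p = 0.0236, and 0.04 without anchored middle library 2) and IGFBP3 in the post region. IGFBP3 had means of 547.7 ± 38.6 CPM in anchored post and 694.8 ± 94.9 CPM in unanchored post tissue, with a log2 fold change of -0.34 (unadjusted p = 0.0233, adjusted p = 1.00 in edgeR). Its libraries of the 2 groups did not overlap in the post or in the middle region, which was so for 9.32% and 7.55% of all genes. In the middle region the IGFBP3 fold change was -0.14 (95% interval -0.43 to 0.15), and the interaction was -0.20 (95% interval -0.61 to 0.21).

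IGFBP4 and IGFBP3 were the members with an unadjusted p under 0.05 over both regions, and neither passed after adjustment. IGFBP4 averaged 208 ± 66.2 CPM in anchored and 168 ± 16.2 CPM in unanchored tissue (SD, n = 6 each), with a log2 fold change of 0.29 (95% interval 0.04 to 0.53, unadjusted p = 0.0223, adjusted p = 0.881 in edgeR). Without anchored middle library 2 the value was 0.11. Over both regions, IGFBP3 stood at -0.24 (unadjusted p = 0.0228, adjusted p = 0.881).

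Anchored middle library 2 stood apart for several members, and over all genes tested as well. Its log2 CPM correlated at 0.977 and 0.981 (Pearson) with the other anchored middle libraries, which correlated at 0.992 with each other. With 2986944 counts, anchored middle library 2 was the highest of the 12 molded libraries for IGF1, IGF2, IGFBP4 and IGFBP5 and the lowest for IGF1R. Relative to the mean of the other anchored middle libraries, it was 3.90-fold for IGF1, 3.17-fold for IGF2, 1.90-fold for IGFBP4, 2.15-fold for IGFBP5 and 0.692-fold for IGF1R. It was close to its group for IGFBP3, at 1.07-fold. Its liver marker sum of 217 CPM was also the highest of the molded libraries, and the part of that in the member values was not tested.

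Against no-mold tissue the members split by direction. The values below are a description with no test, since the list was drawn up with this contrast known. For orientation, 1888 genes (16% of those tested) were called between molded and no-mold tissue, and 9.93% of genes had no overlap between the 12 molded and 3 no-mold libraries. Of the 9 members, 3 had no overlap: IGF1 and IGFBP2 higher and IGFBP5 lower in molded tissue. The number of genes called dropped to 1127 with no-mold library 1 left out and to 856 with no-mold library 3 left out. Without unanchored middle library 2, 5 members had no overlap, and the share over all genes was not counted for that set. Cell type markers and the mitochondrial share also differed in this contrast. Of the 14 fibrochondrocyte and fibroblast markers, 2 were called higher and 5 lower in molded tissue, against 8.04% and 7.91% of all genes. Of the 9 liver markers tested, 1 was called higher and 3 lower in molded tissue, with a median log2 fold change of -0.82, and the liver sum was 87.3 to 217 CPM in molded and 147.5 to 288 CPM in no-mold libraries. The 1 skeletal muscle gene tested, DES, was called lower, and of 3 adipocyte genes 1 was called higher and 1 lower. Mitochondrially encoded genes held 1.52% to 2.36% of counts in molded and 1.40% to 1.74% in no-mold libraries. The part of these in the member values was not tested.

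**Figure D3:**
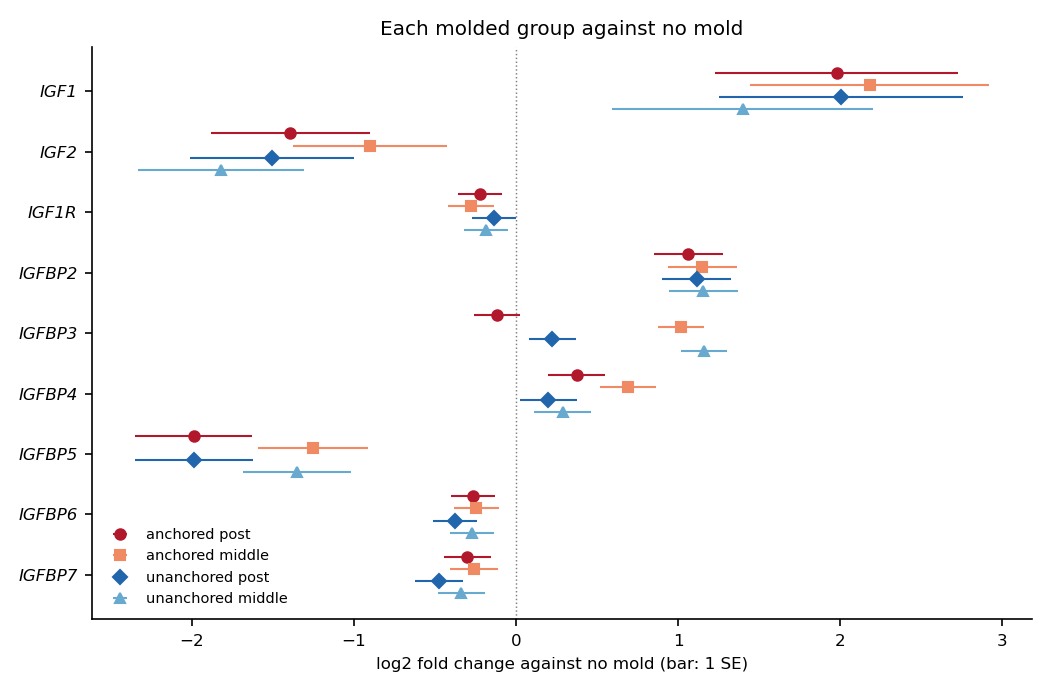
Log2 fold change of each member in each molded group against no mold, with bars of 1 SE. IGFBP2 is between 1.06 and 1.16 in all 4 molded groups, and IGFBP3 is at 1.02 and 1.16 in the middle groups, with -0.12 and 0.23 in the anchored and unanchored post groups.

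IGFBP5 had the most negative fold change of the members over the 4 molded groups together, while in the unanchored middle group IGF2 was lower, at -1.82. The 12 IGFBP5 values of the molded libraries ran from 2.25 through a median of 6.37 to 15.1 CPM, against 23.8, 19.7 and 18.9 CPM in the no-mold libraries. All molded libraries lay below the no-mold libraries. The log2 fold change was -1.64 (SE 0.277), and it was -1.99 in both post groups, -1.25 in the anchored middle and -1.35 in the unanchored middle group. It ranged from -1.73 to -1.55 when any 1 library was left out.

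IGFBP2 ran from 136 through a median of 198 to 262 CPM in the 12 molded libraries, against 127, 58.5 and 103 CPM in the no-mold libraries. Its lowest molded value lay just above its highest no-mold value. The log2 fold change was 1.12 (SE 0.181), with 1.06, 1.15, 1.12 and 1.16 in the anchored post, anchored middle, unanchored post and unanchored middle groups, and 17.8% of its counts sat in non-whole values.

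IGF1 ran from 1.05 through a median of 2.06 to 7.18 CPM in the molded libraries, against 1.01, 0.457 and 0.496 CPM in the no-mold libraries. The no-mold values rest on 2, 2 and 1 counts. Summed over libraries there were 163 counts in molded and 5 counts in no-mold tissue, a depth-scaled ratio of 3.82 (exact 95% interval 1.60 to 11.9, which covers counting error only). IGF2 ran from 1.05 through a median of 2.84 to 8.44 CPM in the molded libraries, against 4.05, 11.4 and 1.98 CPM in the no-mold libraries. The 11.4 CPM came from no-mold library 2, and without it the IGF2 log2 fold change was -0.18, against -1.40 (SE 0.403) with it. The liver marker sum of that library, 147.5 CPM, was the lowest of the no-mold libraries, whose other values were 268 and 288 CPM.

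**Figure D4:**
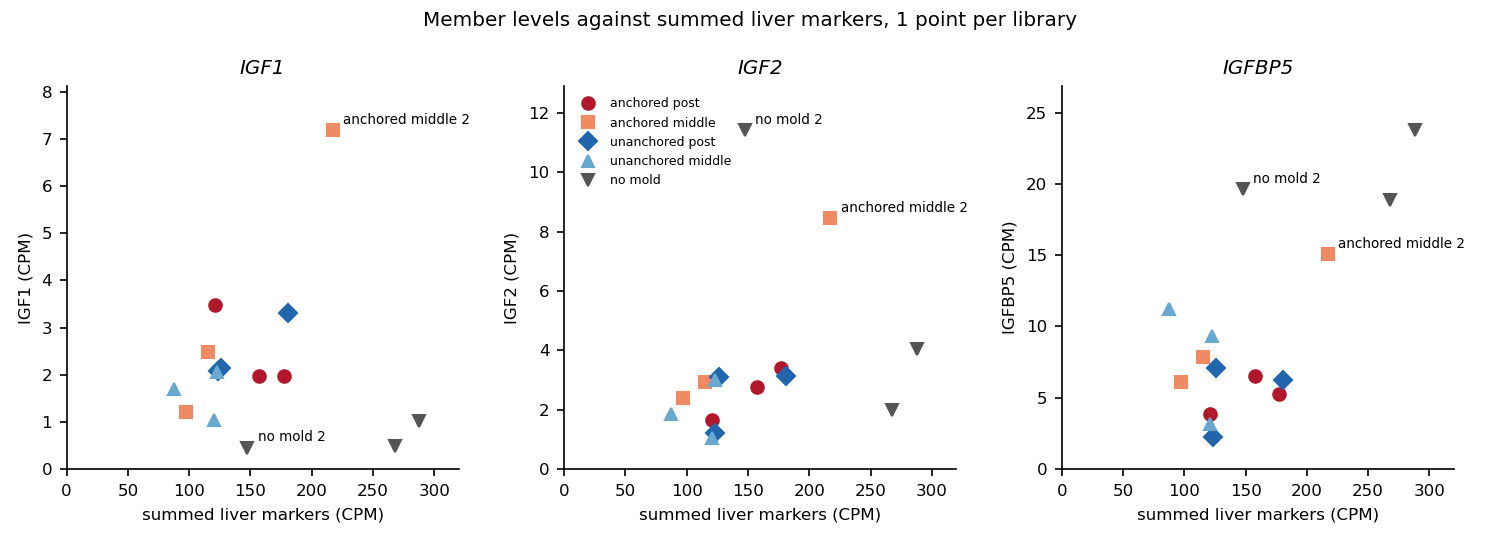
Levels of IGF1, IGF2 and IGFBP5 (CPM) against the summed level of 15 liver markers (CPM), with 1 point per library and groups by color and marker. The no-mold library with the highest IGF2, 11.4 CPM, has the lowest liver sum of its group, 147.5 CPM.

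IGFBP3 in the molded libraries ran from 507 through a median of 951 to 1432 CPM, against 694, 419 and 676 CPM in the no-mold libraries. The post groups overlapped the no-mold libraries and both middle groups lay above them. The log2 fold change was 0.57 (SE 0.118) over molded tissue. By group it was -0.12 in the anchored post, 1.02 in the anchored middle, 0.23 in the unanchored post and 1.16 in the unanchored middle group.

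IGFBP4 was 188 ± 50.5 CPM in molded (SD, n = 12) and 142 ± 5.01 CPM in no-mold tissue (SD, n = 3), and its log2 fold change was 0.39 (SE 0.143). IGF1R, IGFBP6 and IGFBP7 had slightly lower means in molded tissue. IGF1R averaged 40.5 ± 4.93 CPM in molded and 47.2 ± 3.95 CPM in no-mold tissue, a log2 fold change of -0.20 (SE 0.114). IGFBP6 averaged 72.7 ± 9.22 CPM in molded and 88.8 ± 6.51 CPM in no-mold tissue, a log2 fold change of -0.29 (SE 0.110). IGFBP7 averaged 55.3 ± 7.86 CPM in molded and 70.5 ± 4.69 CPM in no-mold tissue, a log2 fold change of -0.34 (SE 0.119). The libraries overlapped for IGFBP4, IGF1R, IGFBP6 and IGFBP7.

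The order of the group means was not the same for every member. For IGFBP3 it ran unanchored middle, anchored middle, unanchored post, no mold and anchored post, and the ranges did not overlap between unanchored middle and anchored middle or between anchored middle and unanchored post. No mold was the highest group for IGF2, IGF1R, IGFBP5, IGFBP6 and IGFBP7 and the lowest for IGF1, IGFBP2 and IGFBP4. Among the 4 molded groups, neighbours in the order overlapped for the 8 members other than IGFBP3.

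The rest of the IGF pathway was read from 68 genes in lists of receptors, binding protein proteases, adaptors, PI3K and AKT genes, mTORC1 genes and IGF2 regulators, of which 46 were tested. These lists were chosen with earlier results of these data known, and the adjusted p-values do not account for that choice. Over both mold types, 1 rose and 5 fell in the post region (2.17% and 10.9% of the 46, against 3.32% and 5.19% of all genes). C1S, a complement protease that can cut IGFBP5, averaged 72.8 ± 9.24 CPM in anchored post and 101 ± 13.5 CPM in anchored middle tissue. In unanchored tissue C1S averaged 73.4 ± 5.16 CPM in the post and 110 ± 15.2 CPM in the middle region, and over both mold types it fell by 0.54 (SE 0.0929, adjusted p = 0.000885 in edgeR). SESN1, an inhibitor of mTORC1, averaged 37.4 ± 6.23 CPM in anchored post and 52.2 ± 3.17 CPM in anchored middle tissue, and fell by 0.46 over both mold types (adjusted p = 0.00146 in edgeR). FOXO1, a transcription factor that AKT holds out of the nucleus, fell by 0.43 (adjusted p = 0.00515), with 38.0% of its counts in non-whole values.

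GAB1, a docking adaptor, fell by 0.46 (adjusted p = 0.00948 in edgeR). PIK3R3, a regulatory subunit of PI3K, fell by 0.35 (adjusted p = 0.0247) and RHEB, the activator of mTORC1, rose by 0.26 (adjusted p = 0.0410). The last of these carried 73.6% of its counts in non-whole values. PIK3R3 lost its call in 6 and RHEB in 9 of the 15 fits without 1 library, with adjusted p up to 0.0812 and 0.119. Within mold types, SESN1 was called lower in anchored tissue (log2 fold change -0.48) and C1S in unanchored tissue (-0.59). Each was 1 of 46 (2.17%), against 1.66% and 0.38% of all genes called lower. These lost their calls in 5 and 7 of the 15 fits. Both genes were also lower in the other mold type without passing, SESN1 at -0.43 (adjusted p = 0.0984 in edgeR) and C1S at -0.49 (adjusted p = 0.0548). Anchoring and the interaction gave 0 of 46.

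**Figure D5:**
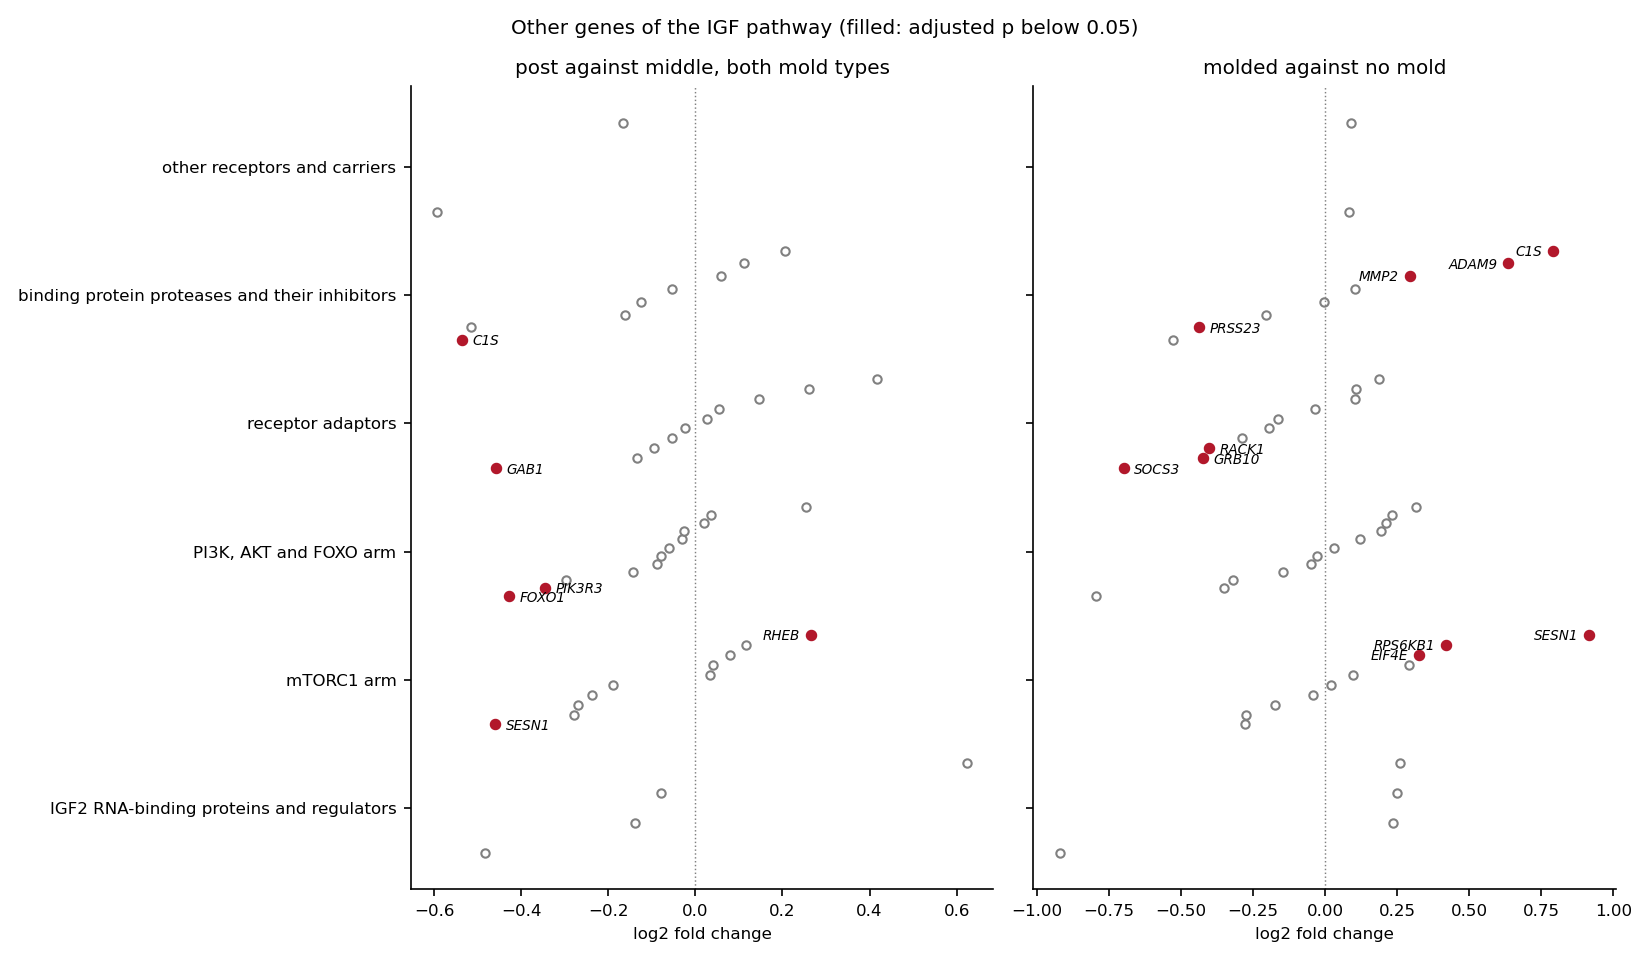
Log2 fold change of the tested pathway genes over both mold types for post against middle and for molded against no mold, with filled markers where the adjusted p is below the threshold. C1S and SESN1 are lower in the post region and higher in molded tissue.

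Between molded and no-mold tissue, 6 of the 46 rose and 4 fell (13.0% and 8.70%, against 8.04% and 7.91% of all genes). Since the lists were chosen with earlier results known, these shares and the adjusted p-values below are a description. The 3 rises kept in every fit without 1 library were SESN1 at 0.92 (adjusted p = 2.2e-05 in edgeR), C1S at 0.79 (adjusted p = 0.000161) and ADAM9, a metalloprotease that can cut IGFBP5, at 0.63 (adjusted p = 0.00101). ADAM9 averaged 105 ± 9.52, 108 ± 13.8, 122 ± 20.9 and 127 ± 16.8 CPM in the anchored post, anchored middle, unanchored post and unanchored middle groups, against 72.9 ± 14.2 CPM in no-mold tissue (SD, n = 3 each). The falls kept in every such fit were SOCS3, a feedback inhibitor of cytokine and insulin signaling, at -0.70, PRSS23, a serine protease, at -0.44, and GRB10, an adaptor that dampens IGF1R and insulin receptor signaling, at -0.42. GRB10 carried 52.6% of its counts in non-whole values. Calls for MMP2, RPS6KB1, EIF4E and RACK1 were lost in 5, 3, 7 and 1 of the 15 fits, and without the 3 shallowest libraries, which leaves 1 no-mold library, 2 of the 10 calls remained, SESN1 and C1S. The number was 6 without no-mold library 3.

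The IGF2 clearance receptor IGF2R averaged 127 ± 14.6 CPM in unanchored post and 148 ± 14.3 CPM in unanchored middle tissue, against 132 ± 13.1 CPM in no-mold tissue. Its log2 fold change for post against middle was -0.22 in unanchored and -0.11 in anchored tissue. IGF2R was called in 0 of the 8 comparisons by edgeR, and 57.8% of its counts sat in non-whole values. INSR, the insulin receptor, was -0.59 in post against middle over both mold types (adjusted p = 0.0752 in edgeR). PAPPA, which cuts IGFBP4, had 16 counts in all 15 libraries together, its relative PAPPA2 had 1 count and its inhibitors STC1 and STC2 had 18 and 48 counts. IGFBP1 had 1 count, so these genes were too sparse to be tested.

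Genes whose log2 CPM followed a member most closely over the 15 libraries, out of 7091 candidates, are given as a description, since the libraries share groups and depth. For IGFBP3 they were CCN5 (Pearson r = 0.940), NUPR1 (0.937) and MGST1 (0.929). CCN5 averaged 5.01 ± 0.324 CPM in anchored post and 15.2 ± 4.92 CPM in anchored middle tissue. With a mean of 10.02 CPM over all libraries, CCN5 passed the 10 CPM limit for candidates only through its middle groups. It was picked for following IGFBP3, so its difference between regions is not a separate result. For IGFBP2 they were THY1 (0.907), SGK1 (0.903) and PTN (0.900), and for IGFBP4 TCEA2 (0.953), H3-3A (0.922) and ALDH18A1 (0.903). For IGF1R they were CD109 (0.911), MYO1D (0.908) and N4BP1 (0.899), for IGFBP6 PFKP (0.891), LENG9 (0.887) and SHISA5 (0.879), and for IGFBP7 IL17RC (0.898), TMEM204 (0.855) and SLC2A3 (0.848).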

How the data were processed

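The authors deposited expected counts and CPM for 15 libraries, on 38001 gene rows and 92 ERCC spike-in rows. The labels' protocols describe an oligo-dT primer carrying sample barcode and molecular identifier, and fragmentation by tagmentation. The submitters' processing notes name STAR 2.7, SAMtools 1.21, MultiQC 1.33 and featureCounts of Subread 2.1.1. Build, annotation and collapsing of molecular identifiers are not stated in the labels. Without collapsing, PCR copies count as separate reads. Of the nonzero counts of a library, 13.5% to 16.3% are not whole.

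Spike-in rows were dropped and expected counts rounded. The filterByExpr function (minimum count 10, minimum total 15) kept 11834 genes. After TMM scaling, edgeR 4.0.16 (R 4.3.3) fitted a quasi-likelihood model in which each group of the 15 libraries had its own mean. Adjustment was by Benjamini and Hochberg over all genes tested, with a threshold of 0.05. Alternatives included DESeq2 1.42.0. Likeness between genes was the Pearson correlation of log2(CPM + 0.5). Members and lists were chosen with earlier results of these data known. The named genes are all members, up to 3 called genes per pathway list and comparison with the smallest adjusted p, the 3 genes most like each member whose mean is at least 10 CPM, and cell type markers. INSR, IGF2R, other called pathway genes and the sparse genes were named after their values were seen. The labels do not pair same-numbered libraries, and their deviations did not correlate above 0.1 in every pair. The edgeR step was tested on simulated data with known changes.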

Additional observations from a re-analysis of the deposited data

How the results depend on the processing

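IGFBP3 in post against middle tissue kept its call under every alternative run, and 0 of the values run changed direction. Fold changes under the alternatives were followed for IGFBP3 in all tested comparisons, IGFBP4 for anchoring and IGFBP5 between regions; 282 of these values kept their direction and side of the threshold and 3, all of IGFBP5, moved past it. For the other tested members only the number called was followed. Without a filter on low counts, IGFBP5 passed in anchored tissue (adjusted p = 0.0386) and over both mold types (adjusted p = 0.000492), so 2 members were called in each. That fit called 479 genes in anchored tissue, 272 in unanchored tissue, 28, 21 and 66 for anchoring in the middle, the post and both regions, and 3 for the interaction. The cause was not tested. DESeq2 called 133 genes for post against middle in unanchored tissue. A fit of only the groups compared called 105 genes in anchored and 192 in unanchored tissue. Without the 3 shallowest libraries, which leaves 1 no-mold library, assumed to vary like the other groups, 148 genes were called in unanchored tissue and 335 between molded and no-mold tissue, and 6 members had no overlap in that contrast, where IGF2 was -2.22, IGFBP2 1.80 and IGFBP3 1.07.

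Leaving out 1 library gave 62 to 283 genes in anchored tissue, 3 to 159 in unanchored tissue and 465 to 1150 over both mold types (1 to 2 members). It gave 0 to 1 for anchoring over both regions, 856 to 2297 between molded and no-mold tissue, and 3 to 5 members without overlap. The share of all genes without overlap was not counted in these fits, nor in the fit without the 3 shallowest libraries. In that fit, no overlap means only that the value of 1 no-mold library lies outside the range of the molded libraries. The 6 members without overlap there can therefore not be compared with the 3 found with all libraries, and no conclusion is drawn from them. The replicate block gave 1 gene for anchoring over both regions and 273, 63 and 1022 genes for post against middle in anchored, unanchored and both, with IGFBP3 adjusted p of 0.000113, 0.00177 and 1.3e-06, and changed no member call. Correlations of same-numbered libraries were -0.0325, 0.0814 and 0.145 in anchored and 0.0928, 0.110 and 0.272 in unanchored tissue between regions. In unanchored tissue every library correlated best with its own number. Restricting the groups was not run for molded against no-mold tissue, which uses all groups. IGF1 in no-mold tissue rests on 5 counts, and IGF2 in that contrast was -0.18 without no-mold library 2.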
